A study of Mus musculus with 8 samples.

Results

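Mouse embryonic stem cells treated with a reagent that the labels call dd-linc1393 (dd, 2 libraries) were compared with untreated embryonic stem cells (control, 2 libraries). The labels give the controls as wild type, and for dd they put the treatment in place of a genotype. The features compared were genes with a mean of at least 1 FPKM over these 4 libraries, which kept 14521 of the 52338 genes with values. FPKM is a level per gene, in fragments per kilobase of transcript scaled to the library. The same limit over all 8 libraries of the series, which also hold cells treated with sh-linc1393 and sd-linc1393, keeps 14561 genes. Each dd library was set against the control library with the same replicate number as well as by group means. The study asks how linc1393, an intergenic long non-coding RNA, bears on pluripotency. What dd stands for is not given in the labels, and linc1393 could not be matched to a row of the table, so its own level was not analysed here. The controls received no reagent, so an effect of delivering a reagent cannot be told apart from an effect on linc1393. Whether libraries of the same group are separate cultures is not stated in the labels. The p-values therefore reflect the spread among the libraries alone, and that spread may be technical.

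Embryonic stem cells renew themselves while keeping the capacity to form all tissues of the embryo. This state rests on a circuit of transcription factors, with Pou5f1 (Oct4), Sox2 and Nanog at its centre, which activate each other and many genes of the naive state. Cells that leave it pass through a formative state marked by Otx2, Pou3f1 and Fgf5 before they commit to a germ layer. Polycomb and trithorax-type chromatin complexes, the latter assembled around Wdr5, help to set which genes stay silent or active.

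The 6 embryonic stem cell markers (Pou5f1, Nanog, Sox2, Zfp42, Esrrb and Utf1) were detected in every library and summed to 861 and 959 FPKM in control replicates 1 and 2 and to 971 and 1016 FPKM in dd. The 8 fibroblast feeder markers summed to 0.521 and 8.68 FPKM in control and to 0.466 and 2.36 FPKM in dd, with 7 of 8 listed at 0 in control replicate 1 and 5 of 8 in dd replicate 1. The 5 primitive endoderm markers summed to 21.7 and 7.0 FPKM in control and to 24 and 1.36 FPKM in dd. In such bulk samples, fewer cells of a type and less RNA per cell cannot be told apart. The libraries stood apart by replicate number before they stood apart by treatment: the first principal component of all 8 libraries carried 78.1% of the variance and separated replicate 1 from replicate 2. Depth was 6415130 and 3658368 reads assigned to genes in the controls and 19161799 and 20387065 in dd. Olfactory receptor genes, which embryonic stem cells are not known for, were above 0 in 78.7% of 1407 cases in control replicate 2 and in 45.0% in dd replicate 2, against 4.48% and 6.68% in the replicate 1 libraries. Their summed level in replicate 2 was 482 FPKM for control and 36.4 FPKM for dd, against 23.6 and 33.1 FPKM in replicate 1.

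Pou5f1, the homeodomain factor without which the pluripotent state is lost, had the largest difference on the lower side among protein-coding genes with a mean of at least 5 FPKM in the higher group, predicted genes left out. The genes were ranked by the smaller of their differences in replicates 1 and 2. It stood at 83.1 and 251 FPKM in control replicates 1 and 2 and 21 and 53.1 FPKM in dd replicates 1 and 2. Both dd libraries were below both control libraries, although the replicate 2 library was the higher one in control and in dd. The ratio of control to dd was 3.95 in replicate 1 (exact 95% interval 3.62 to 4.31, from 1198 and 906 reads) and 4.73 in replicate 2 (4.45 to 5.01, from 2065 and 2435 reads). These intervals cover counting error only. The difference of the group means was -2.08 on the log2(FPKM + 1) scale, with a standard error of 1.12 in limma and of 0.65 when the replicate number was a term. That scale understates the differences of genes with low levels. Neither fit called the gene: the Benjamini-Hochberg adjusted p from limma was 1.0, and 0.543 with the replicate term. Pou5f1 lies at chr17:35506018-35510772, plus strand (GRCm38), overlaps the predicted gene Gm19553 on the other strand, and shares 19.5% of its 31-base stretches with transcripts of other genes, so some of its reads may have been divided with copies. In the other treatments, set against the same controls, it stood at 24.2 and 14.7 FPKM in sh and at 17.8 and 129.8 FPKM in sd.

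Chac2, a gamma-glutamylcyclotransferase that degrades glutathione, had the largest shared difference in the other direction. It stood at 0.237 and 2.49 FPKM in control replicates 1 and 2 and 12.3 and 10.1 FPKM in dd replicates 1 and 2. Both dd libraries were above both controls, and the gap was widest in replicate 1, where the control held 2 reads. The ratio of dd to control was 51.9 in replicate 1 (exact 95% interval 14.2 to 430.4) and 4.05 in replicate 2 (2.28 to 7.94, from 12 and 271 reads). The difference of group means was 2.55 on the log2 scale, with a standard error of 0.84 in limma, and the adjusted p was 1.0 (0.542 with the replicate term). Chac2 lies at chr11:30976707-30986350, minus strand (GRCm38) and overlaps Asb3 on the other strand. Its levels were 23.8 and 7.08 FPKM in sh and 13.8 and 5.64 FPKM in sd.

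Etaa1, which activates the checkpoint kinase Atr at stalled replication forks, was second by the same measure. It stood at 8.01 and 5.94 FPKM in control replicates 1 and 2 and 23.9 and 20.2 FPKM in dd replicates 1 and 2, with both dd libraries above both controls. The ratio of dd to control was 2.99 in replicate 1 (2.6 to 3.46) and 3.4 in replicate 2 (2.75 to 4.25), close to each other although the control libraries held only 215 and 91 reads. Etaa1 lies at chr11:17938756-17953875, minus strand (GRCm38), with no annotated gene overlapping it.

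The promoters of the lower gene with the largest shared difference and of the 2 such higher genes are shown, because these 3 genes stand at the ends of that ranking. Each is 300 bases from RefSeq (GRCm38.p6), from 250 before to 50 after the start RefSeq gives, read 5′ to 3′ on the gene's own strand. They cover chr17:35505782-35506081 (plus strand) for Pou5f1, chr11:30986316-30986615 (minus strand) for Chac2 and chr11:17953826-17954125 (minus strand) for Etaa1. Capitals mark a GC box (GGGCGG or its reverse complement CCGCCC) or a CCAAT box (CCAAT or ATTGG).
Pou5f1: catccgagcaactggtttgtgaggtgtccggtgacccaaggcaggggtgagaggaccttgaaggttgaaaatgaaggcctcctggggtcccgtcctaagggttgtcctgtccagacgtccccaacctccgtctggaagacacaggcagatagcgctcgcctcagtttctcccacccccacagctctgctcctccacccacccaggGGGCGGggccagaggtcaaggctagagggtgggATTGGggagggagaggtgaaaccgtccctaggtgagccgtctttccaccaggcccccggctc
Chac2: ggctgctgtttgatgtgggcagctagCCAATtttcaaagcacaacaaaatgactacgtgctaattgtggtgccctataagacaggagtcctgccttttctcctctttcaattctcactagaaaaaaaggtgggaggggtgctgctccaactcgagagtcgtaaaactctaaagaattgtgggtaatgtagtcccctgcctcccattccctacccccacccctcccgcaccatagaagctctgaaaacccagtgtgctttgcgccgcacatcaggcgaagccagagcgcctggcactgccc
Etaa1: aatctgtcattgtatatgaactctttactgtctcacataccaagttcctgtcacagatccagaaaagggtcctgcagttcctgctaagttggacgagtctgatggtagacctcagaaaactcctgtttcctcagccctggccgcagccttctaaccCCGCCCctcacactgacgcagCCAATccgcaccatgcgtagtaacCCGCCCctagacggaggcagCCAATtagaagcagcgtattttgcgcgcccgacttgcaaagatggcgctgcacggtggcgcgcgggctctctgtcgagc
The Pou5f1 window held 1 GC box and 1 CCAAT box, the Chac2 window 1 CCAAT box and no GC box, and the Etaa1 window 2 of each. None of the 3 held TATAAA or the octamer ATGCAAAT, on either strand, and no marked motif overlapped another. Of the 8025 genes tested that had a RefSeq promoter, 66.2% held a GC box, 40.4% a CCAAT box, 6.87% TATAAA and 1.32% the octamer. The same shares were 53.2%, 49.4%, 6.49% and 0% in the 77 matched genes that were higher 2-fold or more in both replicate numbers, and 60%, 48.6%, 11.4% and 2.86% in the 35 matched genes that were lower. A match describes the letters of the window and is no evidence of a factor there.

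Limma, fitted on all 8 libraries with Benjamini-Hochberg adjustment over the 14521 genes, called 0 genes between dd and control at an adjusted p under 0.05 (0.0% of those tested), with 88 at an unadjusted p under 0.05. With the replicate number as a term it also called 0 (0.0%), with 1321 unadjusted and a smallest adjusted p of 0.182. Voom on the recovered reads called 0 without that term (40 unadjusted) and 5 lower genes with it (1605 unadjusted). Those 5 were Rn7s6, Gm23153, Mir6236, Gm42427 and Gm48274, named after their values were seen, and none of them is protein-coding. In all 5, control replicate 2 stood far above the other control and dd libraries. Rn7s6 stood at 0 and 5062 FPKM in control replicates 1 and 2 and at 0 and 1.18 FPKM in dd. Mir6236 stood at 8.87 and 8329 FPKM in control and at 20.4 and 55 FPKM in dd, so it was higher in dd in replicate 1. The limma count of called genes depended on control replicate 1, without which control replicate 2 was the only control. Leaving out control replicate 2 instead, so that control replicate 1 was the only control, did not change the count. The cause was not tested. Without the replicate term, the fit without control replicate 1 set both dd libraries against control replicate 2 alone. A difference between replicate numbers could then not be told apart from one between treatments. Without dd replicate 1 the fit with the replicate term called 18 lower genes, and on the dd and control libraries alone with that term, which leaves 1 residual degree of freedom, it called 106 (29 higher, 77 lower). Of the 106, 11 were protein-coding, and they held Chac2 (adjusted p = 0.00238), Pou5f1 (0.0297) and mt-Atp6 (0.00613), which limma did not call in the fits on all libraries. Between dd and sh limma without the replicate term called 0 genes (0.0%), with 11 at an unadjusted p under 0.05. Between dd and sd it called 0 (0.0%), with 3. With the replicate term it also called 0 (0.0%) in each, with 628 unadjusted between dd and sh and 139 between dd and sd.

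Within the replicate numbers, 181 genes (1.25% of those tested) were higher in dd by 2-fold or more in both, and 97 (0.668%) were lower by as much in both. Of these, 85 and 40 were protein-coding. Within replicate 1, 1814 genes were higher and 547 lower by 2-fold or more, and within replicate 2, 1106 were higher and 3255 lower. Between the numbers, 278 genes were 2-fold higher in replicate 1 and 2-fold lower in replicate 2, and 42 were the reverse. At any size, 4445 genes (30.6%) were higher in both and 2242 (15.4%) were lower in both. For 1617 genes (11.1%) both dd libraries lay above both controls, and for 733 (5.05%) both lay below. The differences of the 2 replicate numbers had a Pearson r of 0.083 and a Spearman rho of 0.089 across genes, which are not independent replicates. Their SD was 0.734 in replicate 1 and 1.12 in replicate 2. The members nearest the 2-fold limit had a smaller difference of 1.001 just inside and 0.9994 just outside on the higher side, and -1.001 and -0.9986 on the lower side.

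**Figure D1:**
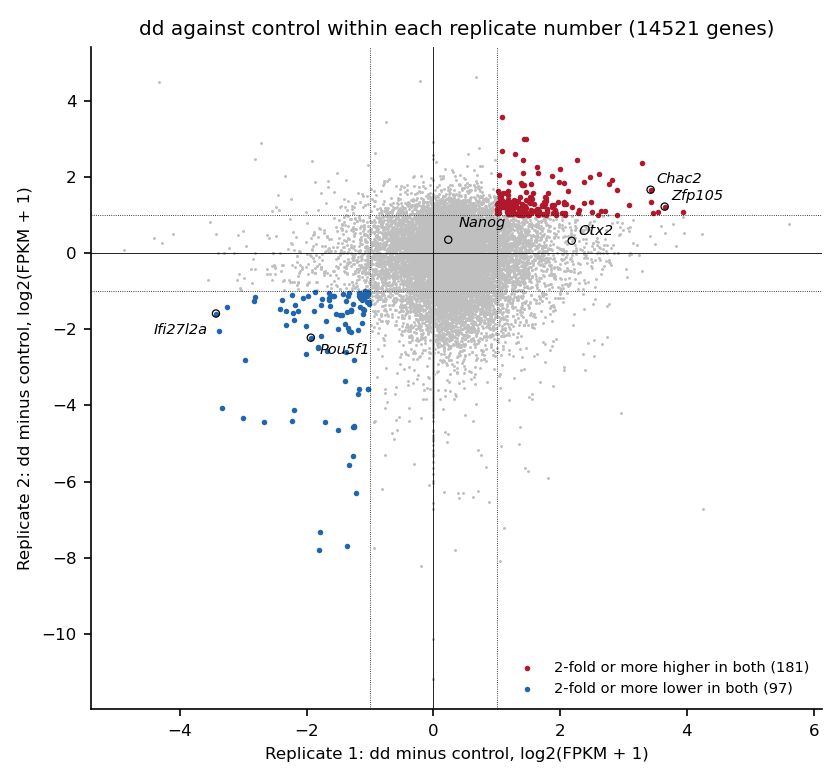
Difference between dd and control on the log2(FPKM + 1) scale in replicate 1 (horizontal axis) and replicate 2 (vertical axis), 1 point per gene for 14521 genes, with dotted lines at 2-fold. The 181 genes higher in both (red) and the 97 lower in both (blue) are few beside the genes past 2-fold in 1 replicate number only, and Pou5f1 and Chac2 lie in opposite corners.

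The direction of the whole table depended on the scaling. The median difference of all genes was 0.27 in replicate 1 and -0.16 in replicate 2 with the deposited values, 0 and -0.08 after median ratio scaling, and -0.003 and 0.18 after quantile normalization. Among the genes past 2-fold in both numbers, 65.1% were on the higher side with the deposited values, 45.8% after median ratio scaling and 67.2% after quantile normalization. That share was 46.7% with a pseudocount of 0.1 and 54.6% with 0.5, 77.1% among genes with a mean of at least 5 FPKM and 88.4% among genes with at least 100 mean reads.

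Base composition moved with the replicate 2 difference. Across 9829 protein-coding genes, the difference between dd and control had a Pearson r of 0.007 with the GC share of the longest transcript in replicate 1 and of -0.649 in replicate 2, where the points share their libraries. In 5 equal groups of genes from low to high GC, the median replicate 2 difference was 0.63, 0.37, 0.04, -0.39 and -0.92. The 85 protein-coding genes higher in both had a median GC of 42.4%, the 40 lower ones of 54.6%, and all of them of 49.4%. In replicate 2 the same r was -0.451 for sh and -0.555 for sd, each against the same control library. After each difference was centred on genes of like GC, 88 genes were 2-fold higher in both and 128 were lower, of which 51 and 59 were among the 181 and the 97, and 40.7% of the genes past 2-fold were then on the higher side.

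**Figure D2:**
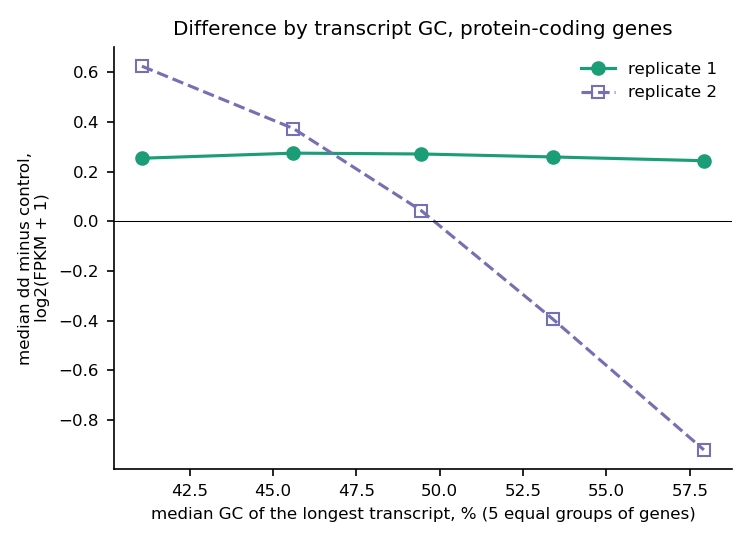
Median difference between dd and control (vertical axis, log2(FPKM + 1) scale) against the median transcript GC (horizontal axis, %) of 5 equal groups of the 9829 protein-coding genes, with circles for replicate 1 and squares for replicate 2. The replicate 1 line is flat and the replicate 2 line runs from 0.63 down to -0.92.

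The same ranking gave 12 further higher genes. Fignl1, an AAA ATPase that acts in homologous recombination, stood at 14.9 and 15.9 FPKM in control replicates 1 and 2 and 37.2 and 39.9 FPKM in dd replicates 1 and 2. The libraries of each group lay close together and the groups did not overlap, with differences of 1.26 and 1.27 in replicates 1 and 2. Depdc1a, a DEP domain protein, stood at 1.88 and 1.97 FPKM in control and 6.85 and 5.99 FPKM in dd, likewise with no overlap, although 68.1% of its 31-base stretches occur in transcripts of other genes. Neither was called in any fit run.

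Ndufaf4, an assembly factor of respiratory complex I, stood at 4.51 and 4.34 FPKM in control and 13.6 and 12 FPKM in dd, and Etfrf1, a mitochondrial regulator of the electron transfer flavoprotein, at 7.21 and 4.69 FPKM in control and 19.15 and 12.4 FPKM in dd. Eif5a2, a paralogue of the translation factor Eif5a, stood at 1.46 and 1.79 FPKM in control and 7.95 and 5.72 FPKM in dd. In all 3 genes both dd libraries were above both controls. Eif5a itself, the abundant form, was lower in both replicate numbers, at 501 and 164 FPKM in control and 463 and 40.8 FPKM in dd, with a difference of -0.11 in replicate 1 and of -1.98 in replicate 2.

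Zfp820, which encodes a zinc-finger protein, was listed at 0 in control replicate 1 and at 2.94 FPKM in the other control, and stood at 4.18 and 8.76 FPKM in dd. Against a floor of 3 reads its level in dd replicate 1 was at least 33.3-fold higher, and the ratio in replicate 2 was 2.98 (2.16 to 4.21). The zinc-finger gene Zfp229 stood at 6.25 and 5.53 FPKM in control and 23.6 and 15 FPKM in dd, and Zfp383 at 1.07 and 2.73 FPKM in control and 4.72 and 8.81 FPKM in dd. In none of the 3 did the groups overlap. Tmem47, a membrane protein of cell junctions, stood at 2.13 and 2.31 FPKM in control and 6.77 and 7.08 FPKM in dd, and Lgalsl, a galectin-like protein, at 0.303 and 2.99 FPKM in control and 3.46 and 9.38 FPKM in dd. Uchl4, a ubiquitin hydrolase gene, stood at 27.1 and 63 FPKM in control and 80.8 and 176 FPKM in dd, lies within Map2k1 on the other strand, and shares 37.4% of its stretches with other genes. Capsl, a calcium-binding protein, stood at 2.46 and 10.9 FPKM in control and 10.4 and 28 FPKM in dd, so that its dd replicate 1 was below control replicate 2.

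On the lower side, Ifi27l2a, an interferon-inducible gene, stood at 9.76 and 2.95 FPKM in control, was listed at 0 in dd replicate 1 and stood at 0.318 FPKM in dd replicate 2. Against a floor of 3 reads it was at least 28.9-fold lower in dd replicate 1. In replicate 2 it rested on 5 control reads and 3 dd reads, and the ratio of control to dd was 9.29 (1.81 to 59.8). Sertad3, a transcriptional regulator with a SERTA domain, stood at 5.63 and 17.1 FPKM in control and 0.432 and 5.13 FPKM in dd, with both dd libraries below both controls.

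Snai1, the zinc-finger repressor of E-cadherin in epithelial-mesenchymal transition, stood at 12.6 and 4.89 FPKM in control and 4.15 and 0.635 FPKM in dd, and its groups did not overlap. Orai1, the pore of the store-operated calcium channel, stood at 4.82 and 10.5 FPKM in control and 1.09 and 2.71 FPKM in dd. A4galt, which makes the glycolipid Gb3, stood at 9.37 and 4.56 FPKM in control and 4.15 and 1.27 FPKM in dd, and Rundc3a, a RUN domain protein, at 3.18 and 7.34 FPKM in control and 0.621 and 1.83 FPKM in dd. These 4 genes were lower by 1 or more on the log2 scale in both replicate numbers, with both dd libraries below both controls.

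For 6 further lower genes the groups overlapped. Sox15, a Sox factor that can pair with Pou5f1, stood at 7.06 and 45.1 FPKM in control and 3.21 and 11.1 FPKM in dd, and Castor1, an arginine sensor of the mTORC1 pathway, at 6.14 and 16 FPKM in control and 1.29 and 6.48 FPKM in dd. Sdc4, a heparan sulfate proteoglycan, stood at 172 and 24.3 FPKM in control and 83.7 and 11.3 FPKM in dd, and Gatd1 at 31.5 and 4.66 FPKM in control and 13.5 and 1.58 FPKM in dd. In each of these the higher dd library lay above the lower control library. Junb, an AP-1 subunit, stood at 23.7 and 4.51 FPKM in control and 11.5 and 1.17 FPKM in dd, and Znhit2 at 2.07 and 18.1 FPKM in control and 0.57 and 7.81 FPKM in dd, and their replicate 2 differences turned to 0.40 and 0.62 after centring on genes of like GC.

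Of the genes named here for the size of their shared difference, the GC-centred differences stayed at 1 or more in both numbers for Chac2 (3.25 and 1.08) and Zfp383 (1.15 and 1.01). They stayed at -1 or less in both for Pou5f1 (-2.25 and -1.34), Ifi27l2a (-3.69 and -1.07) and Sertad3 (-2.48 and -1.04). All of these genes, named here for that size, had an adjusted p of 1.0 in limma without the replicate term and between 0.542 and 0.543 with it.

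**Figure D3:**
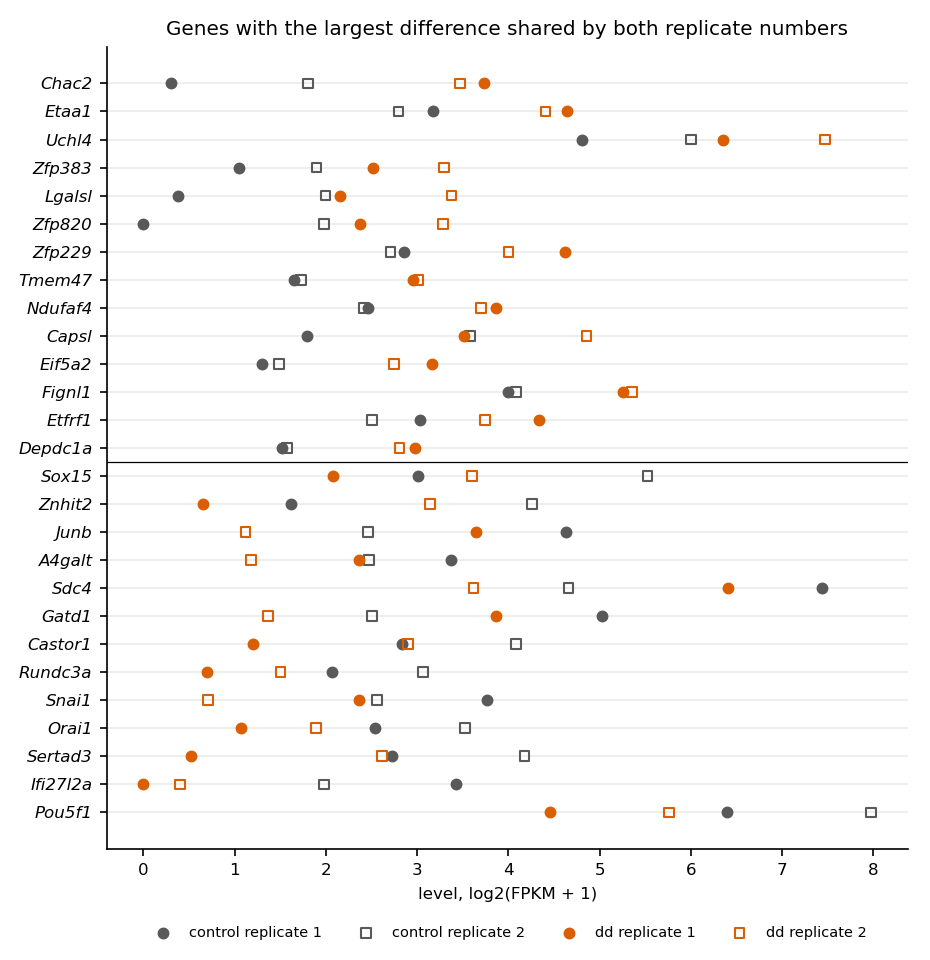
Level in each library (horizontal axis, log2(FPKM + 1)) for the 14 protein-coding genes with the largest shared higher difference (top block) and for the lower ones described (bottom block), with circles for replicate 1, squares for replicate 2, grey for control and orange for dd. Fignl1 and Tmem47 show tight groups that do not overlap, while Sdc4 and Gatd1 are split mostly by replicate number.

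Most other pluripotency genes did not share the lower level of Pou5f1. Of 20 core pluripotency genes, all of which passed the level filter, 10 were higher in dd in both replicate numbers, 2 were lower in both and 8 had opposite signs or a difference of 0, with none called. Of all genes tested, 30.6% were higher in both and 15.4% lower in both. The median difference of the core genes was 0.27 and 0.38 in replicates 1 and 2. It was 0.27 and -0.16 for all genes and 0.26 and -0.02 for protein-coding genes. Among protein-coding genes the replicate 2 median varied with level. It was -0.48 at a mean of 1 to 2 FPKM, 0.28 at 5 to 20, 0.43 at 20 to 100 and 0.31 over 100. The part of level in the list medians was not tested. After centring on GC, the core medians were 0.005 and 0.40. Nanog, the homeodomain factor that stabilises the circuit, stood at 243 and 215 FPKM in control and 286 and 275 FPKM in dd, and both dd libraries were above both controls. Sox2, the HMG-box partner of Pou5f1, stood at 199.8 and 291 FPKM in control and 235 and 371 FPKM in dd, higher in dd within each number but with dd replicate 1 below control replicate 2.

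Dppa4, a chromatin-bound factor of pluripotent cells, stood at 26.3 and 24.2 FPKM in control and 53.7 and 33.1 FPKM in dd and did not overlap between the groups, with 41.6% of its stretches shared with other genes. L1td1, an RNA-binding protein encoded by a domesticated LINE-1 gene, stood at 134 and 42.7 FPKM in control and 198 and 80.2 FPKM in dd. Tdgf1, the Nodal co-receptor Cripto, stood at 167 and 297 FPKM in control and 217 and 626 FPKM in dd, and Epcam, an adhesion molecule of the stem cell surface, at 8.31 and 15.2 FPKM in control and 14 and 28 FPKM in dd. The last 3 were higher in dd within each number, with overlapping groups. Gdf3, a TGF-beta family ligand, was the other core gene that was lower in both, at 26.9 and 31.7 FPKM in control and 22.3 and 23.5 FPKM in dd, with differences of -0.26 and -0.42.

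Naive pluripotency genes likewise had more members higher than lower, as did all genes tested (30.6% and 15.4%). Of 20, 12 were higher in both numbers, 1 was lower in both and 7 were neither, with medians of 0.33 and 0.29 (0.08 and 0.36 after centring on GC). Nr5a2, a nuclear receptor that can act in place of Pou5f1 in reprogramming, stood at 8.64 and 5.75 FPKM in control and 16.7 and 9.89 FPKM in dd, with no overlap. Zfp42 (Rex1), a standard marker of the naive state, stood at 293 and 132 FPKM in control and 361 and 273 FPKM in dd, and Klf4 at 105 and 52.3 FPKM in control and 109 and 87.4 FPKM in dd. Both had dd replicate 2 below control replicate 1. Esrrb, an orphan nuclear receptor, stood at 16.5 and 32.1 FPKM in control and 30.2 and 31.4 FPKM in dd, with dd above control in replicate 1 and level with it in replicate 2. Klf2 stood at 35.1 and 141 FPKM in control and 48.8 and 182 FPKM in dd, and Nr0b1 at 121 and 30.8 FPKM in control and 150.3 and 60.5 FPKM in dd, each higher in dd within both numbers. Pecam1 was the naive gene lower in both, with differences of -0.52 and -0.15.

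**Figure D4:**
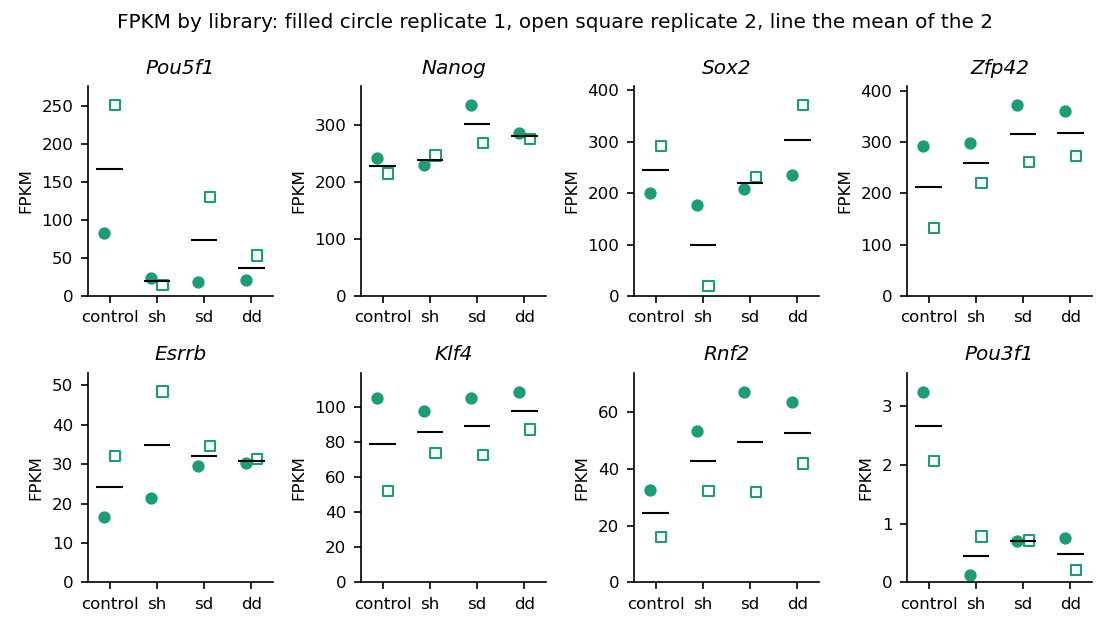
FPKM (vertical axis, linear, from 0) in each library of the 4 groups for Pou5f1, Nanog, Sox2, Zfp42, Esrrb, Klf4, Rnf2 and Pou3f1, with circles for replicate 1, squares for replicate 2 and a line at the mean of the 2. Pou5f1 and Pou3f1 are lower in both dd libraries than in both controls, and Nanog and Rnf2 are higher; centring on GC turned the replicate 2 difference of Pou3f1 to 0.41 and the replicate 1 difference of Nanog to -0.02.

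Genes of the formative and primed states were lower in both numbers or of opposite sign, with 1 exception. Of 11 that passed the filter, out of 16 on the list, 1 was higher in both numbers, 4 were lower in both and 6 had opposite signs, with medians of 0.10 and -0.57. Of all genes tested, 30.6% were higher in both and 15.4% lower in both. Pou3f1 and Sall2 were under 1 FPKM in both dd libraries and passed the filter through their controls, so the count cannot be set against those shares. Pou3f1 (Oct6), the POU factor of the epiblast after implantation, stood at 3.24 and 2.06 FPKM in control and 0.759 and 0.217 FPKM in dd, and both dd libraries were below both controls. Cldn6, a tight junction protein, stood at 7.79 and 6.99 FPKM in control and 3.21 and 3.39 FPKM in dd and Sall2 at 4.62 and 1.21 FPKM in control and 0.653 and 0.641 FPKM in dd, again without overlap. After centring on genes of like GC, the replicate 2 differences of Pou3f1 and Sall2 turned to 0.41 and 0.09. The 1 higher gene was Otx2, the homeodomain factor that drives exit from the naive state, at 0.111 and 5.5 FPKM in control and 4.04 and 7.16 FPKM in dd. Its difference of 2.18 in replicate 1 rests on the low control library there, and in replicate 2 it was 0.33. Dnmt3b, a de novo DNA methyltransferase, stood at 14.9 and 3.05 FPKM in control and 14.2 and 2.2 FPKM in dd, with overlapping groups. Fgf5 had a mean of 0.597 FPKM and did not pass the filter. The list had a median GC of 53.1%, and its medians after centring on GC were -0.07 and -0.18.

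Markers of committed lineages were low in all 4 libraries. Of 11 primitive endoderm genes tested, 0 were higher in both numbers and 4 were lower in both, among them Gata6 at 6.8 and 1.01 FPKM in control and 3.94 and 0.467 FPKM in dd, Sox17 at 5.06 and 1.03 FPKM in control and 3.02 and 0.308 FPKM in dd and the endocytic receptor Lrp2 at 3.97 and 1.03 FPKM in control and 1.56 and 0.129 FPKM in dd. The other 7 had opposite signs, 5 of them higher in dd in replicate 1 and lower in replicate 2. Of all genes tested, 30.6% were higher in both and 15.4% lower in both. Lrp2 had a dd mean under 1 FPKM and passed the filter through its controls, so the count cannot be set against those shares. Of the primitive endoderm markers, the transcription factor Sox7 stood at 1.985 and 1.823 FPKM in control and at 6.865 and 0.0446 FPKM in dd, and the endocytic adaptor Dab2 at 6.879 and 0.41 FPKM and at 8.622 and 0.261 FPKM. Gata6, Sox17 and Lrp2 were at about 1 FPKM or less in the replicate 2 libraries of either group, and the control level in replicate 1 was the highest of the 4 libraries. The median of the list by group means was -0.16 with the deposited values and 0.02 after quantile normalization. The 3 mesoderm markers (T, Mixl1 and Mesp1) summed to 0.951 and 7.75 FPKM in control and to 0.248 and 1.56 FPKM in dd. The 3 neural markers summed to 3.18 and 10.8 FPKM in control and to 7.08 and 3.98 FPKM in dd, and the 4 trophoblast markers to 1.31 and 6.66 FPKM and to 0.0616 and 1.5 FPKM. All 3 sums were higher in control replicate 2 than in dd replicate 2, as was the olfactory sum, and the part of that library's background in these differences was not tested.

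Polycomb genes had more members higher than lower, as did all genes tested (30.6% and 15.4%). Of 21 tested, 11 were higher in both numbers and 4 lower in both, with medians of 0.21 and 0.62, and of -0.04 and 0.42 after centring on GC. The lower genes Pcgf1 and Kdm2b had a dd mean under 1 FPKM and passed the filter through their controls. The count therefore cannot be set against those shares. Rnf2 (Ring1b), the ubiquitin ligase of Polycomb repressive complex 1, stood at 32.5 and 16 FPKM in control replicates 1 and 2 and 63.4 and 41.8 FPKM in dd replicates 1 and 2. Both dd libraries were above both controls, and the ratio of dd to control was 1.95 (1.81 to 2.1) in replicate 1 and 2.62 (2.3 to 3) in replicate 2. Rnf2 overlaps Gm36527 on its own strand and Trmt1l on the other.

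Pcgf6, which defines a variant form of that complex in stem cells, stood at 13.7 and 5.82 FPKM in control and 23.9 and 15.7 FPKM in dd, Rybp, another subunit of variant complexes, at 16.7 and 12.1 FPKM in control and 22.5 and 21.1 FPKM in dd, and Rbbp7, a histone chaperone shared with complex 2, at 28.4 and 40.4 FPKM in control and 41.4 and 86.8 FPKM in dd. In these 3 genes the groups did not overlap. Pcgf1, the paralogue that defines a different variant complex, was lower, at 1.61 and 5.8 FPKM in control and 0.411 and 0.922 FPKM in dd, and Kdm2b, which brings the Pcgf1 complex to CpG islands, stood at 1.28 and 2.46 FPKM in control and 1.08 and 0.745 FPKM in dd. Both were below both controls in both dd libraries, and 34.7% of the stretches of Pcgf1 are shared with other genes.

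The Wdr5 and H3K4 methyltransferase genes were split. Of 16 tested, 3 were higher in both numbers, 4 lower in both and 9 of opposite sign, with medians of 0.06 and -0.23. Of all genes tested, 30.6% were higher in both and 15.4% lower in both. Kmt2d had a dd mean under 1 FPKM and passed the filter through its controls, so the count cannot be set against those shares. Wdr5, the scaffold of the complex, stood at 16.2 and 30.5 FPKM in control and 16.7 and 22 FPKM in dd, with overlapping groups. Dpy30, another core subunit, stood at 115 and 137 FPKM in control and 173 and 183 FPKM in dd and did not overlap, while Men1 (menin), which brings the complex to its targets, was below both controls in both dd libraries, at 3.86 and 5.77 FPKM in control and 1.63 and 2.46 FPKM in dd. The methyltransferase Kmt2d stood at 1.86 and 2.32 FPKM in control and 1.43 and 0.47 FPKM in dd. After centring on GC, the differences in replicates 1 and 2 were 0.28 and 0.05 for Dpy30 and -1.10 and -0.08 for Men1.

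Signalling genes showed no common direction. Of 13 LIF and Stat3 pathway genes, 5 were higher in both numbers and 3 lower. Jak1, the kinase that carries the LIF signal, stood at 5.03 and 4.43 FPKM in control and 9.81 and 7.36 FPKM in dd, without overlap, and Stat3 at 7.89 and 3.3 FPKM in control and 7.42 and 2.36 FPKM in dd. In the FGF and ERK list, 6 of 19 were higher in both and 3 lower. Its immediate early genes went opposite ways, with Fos at 0 and 3.14 FPKM in control and 1.2 and 8.57 FPKM in dd, and Egr1 at 3.58 and 2.8 FPKM in control and 0.0466 and 1.27 FPKM in dd. Egr1 did not overlap between the groups, and its replicate 2 difference turned to 0.14 after centring on GC. Its dd mean was under 1 FPKM, and it passed the filter through its controls. The FGF and ERK count therefore cannot be set against the 30.6% higher and 15.4% lower of all genes tested. Dusp6, a phosphatase that limits ERK activity, stood at 137 and 2.62 FPKM in control and 89 and 0.595 FPKM in dd, with the larger part of its spread between replicate numbers.

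In the Nodal and BMP list, 8 of 23 genes were higher in both numbers and 7 lower. Smad4, the shared signal transducer, stood at 16 and 12.3 FPKM in control and 22.8 and 17.5 FPKM in dd, whereas Smad3, the Nodal effector, stood at 2.28 and 2.22 FPKM in control and 0.603 and 1.28 FPKM in dd. Neither overlapped between the groups, and the replicate 2 difference of Smad3 turned to 0.02 after centring on GC. Smad3 had a dd mean under 1 FPKM and passed the filter through its controls. The Nodal and BMP count therefore cannot be set against the 30.6% higher and 15.4% lower of all genes tested. In the Wnt list, 5 of 14 were higher in both and 5 lower. Ctnnb1 (beta-catenin) stood at 14.7 and 26.7 FPKM in control and 22.9 and 60.5 FPKM in dd, and Axin2, a feedback target of the pathway, at 2.86 and 1.04 FPKM in control and 1.94 and 0.472 FPKM in dd, both with overlapping groups. Centring turned the replicate 2 difference of Axin2 to 0.21.

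The lists of splicing, protein folding, translation, proteasome, mitosis and replication genes each had more members higher in both numbers than lower in both, as did all genes tested, of which 30.6% were higher in both and 15.4% lower. Members named below as not overlapping between the groups stand beside 11.1% of all genes with both dd libraries above both controls and 5.05% with both below. Of 39 splicing factor genes, 27 were higher in both numbers and 2 lower, with medians of 0.34 and 0.75. Srsf7 was among them, at 59.3 and 64.7 FPKM in control and 100.4 and 109.6 FPKM in dd. Of 28 chaperone genes, 18 were higher in both and 3 lower, with medians of 0.40 and 0.58. Hspd1, the mitochondrial chaperonin, stood at 110.2 and 90.8 FPKM in control and 219 and 165 FPKM in dd, and Cct4, a subunit of the cytosolic chaperonin, at 50.6 and 82.4 FPKM in control and 82.9 and 212 FPKM in dd, neither with overlap. Of the lower ones, Pdia4, of the endoplasmic reticulum, stood at 70.4 and 24 FPKM in control and 38.5 and 5.44 FPKM in dd, and Calr, of the same compartment, at 273 and 92.8 FPKM in control and 227 and 27.2 FPKM in dd.

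Of 51 translation factor genes, 26 were higher in both and 2 lower, and Eif5, which triggers GTP hydrolysis at the start codon, stood at 26.5 and 17.8 FPKM in control and 54.2 and 35.5 FPKM in dd. The proteasome list had 18 of 37 higher in both and 0 lower, with Psmc6, an ATPase of the regulatory particle, at 49.7 and 32.2 FPKM in control and 88.8 and 74.8 FPKM in dd. Mitosis genes were higher in both in 19 of 32 cases and lower in 0, with Ttk (Mps1), a spindle checkpoint kinase, at 5.45 and 7.17 FPKM in control and 9.62 and 15.7 FPKM in dd. DNA replication genes were higher in both in 15 of 34 and lower in 3. Cdt1, which loads the replicative helicase, stood at 14.7 and 25.6 FPKM in control and 33.2 and 43.1 FPKM in dd, and Cdc45, a part of that helicase, at 7.11 and 7.25 FPKM in control and 4.96 and 3.75 FPKM in dd, in opposite directions and without overlap. The splicing list had a median GC of 44.1%, and its medians were 0.11 and 0.43 after centring on GC.

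Cytosolic ribosomal protein genes followed the replicate numbers. In replicate 1, 80 of 83 were higher in dd, and in replicate 2 only 25 were, so that 24 were higher in both and 1, Rpl39l, was lower in both. Their median difference by group means was 0.10 with the deposited values and -0.06 after median ratio scaling. Replication-dependent histone genes, whose mRNAs end in a stem-loop instead of a poly(A) tail, had medians of 0.21 and -1.88, with 1 of 50 higher in both and 13 lower. The 37 genes of the mitochondrial genome had medians of 0.31 and -1.20. There the messenger mt-Atp6 stood at 8659.5 and 3972 FPKM in control and 12619 and 8715 FPKM in dd, above both controls in both dd libraries, and the transfer RNA gene mt-Tv at 36.1 and 174 FPKM in control and 9.08 and 60.4 FPKM in dd.

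Glutathione and sterol genes held further members without overlap. Gsr, the reductase that regenerates glutathione, stood at 26.3 and 17 FPKM in control and 44.7 and 36.6 FPKM in dd; Nfe2l2 (Nrf2), the transcription factor of the antioxidant response, stood at 26.8 and 21.5 FPKM in control and 38 and 50.9 FPKM in dd. With Chac2, they were among 10 of 26 glutathione and thioredoxin genes higher in both, against 3 lower, beside 30.6% and 15.4% of all genes tested. The median of that list by group means was 0.07 with the deposited values and -0.07 after median ratio scaling. Of 23 cholesterol synthesis genes 8 were higher in both and 1, Insig1, was lower. Cyp51, the lanosterol demethylase, stood at 9.04 and 15.7 FPKM in control and 17.1 and 33.8 FPKM in dd, and Sqle, the squalene epoxidase, at 12.5 and 8.33 FPKM in control and 29.1 and 14.5 FPKM in dd.

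Germline genes were higher in both numbers in 6 of 11 cases and lower in 0. Of all genes tested, 30.6% were higher in both and 15.4% lower. The germline gene Magea4 had a control mean under 1 FPKM and passed the filter through its dd libraries, so the count cannot be set against those shares. Dazl, an RNA-binding protein of germ cells, stood at 28 and 14 FPKM in control and 39.9 and 34.3 FPKM in dd. Magea4, a cancer-testis gene on chromosome X, was listed at 0 in control replicate 1 and at 0.288 FPKM (1 read) in the other control, and stood at 1.87 and 2.22 FPKM (34 and 43 reads) in dd. Against a floor of 3 reads it was at least 3.79-fold higher in dd replicate 1, and the ratio in replicate 2 was 7.72 (1.31 to 312). Its GC-centred differences were 1.32 and 1.21. Zscan4c, a gene of the 2-cell-like state, stood at 5.82 and 2.4 FPKM in control and 11.4 and 7.74 FPKM in dd, but 91.8% of its stretches occur in its near-identical copies, so its reads cannot be told apart from theirs.

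**Figure D5:**
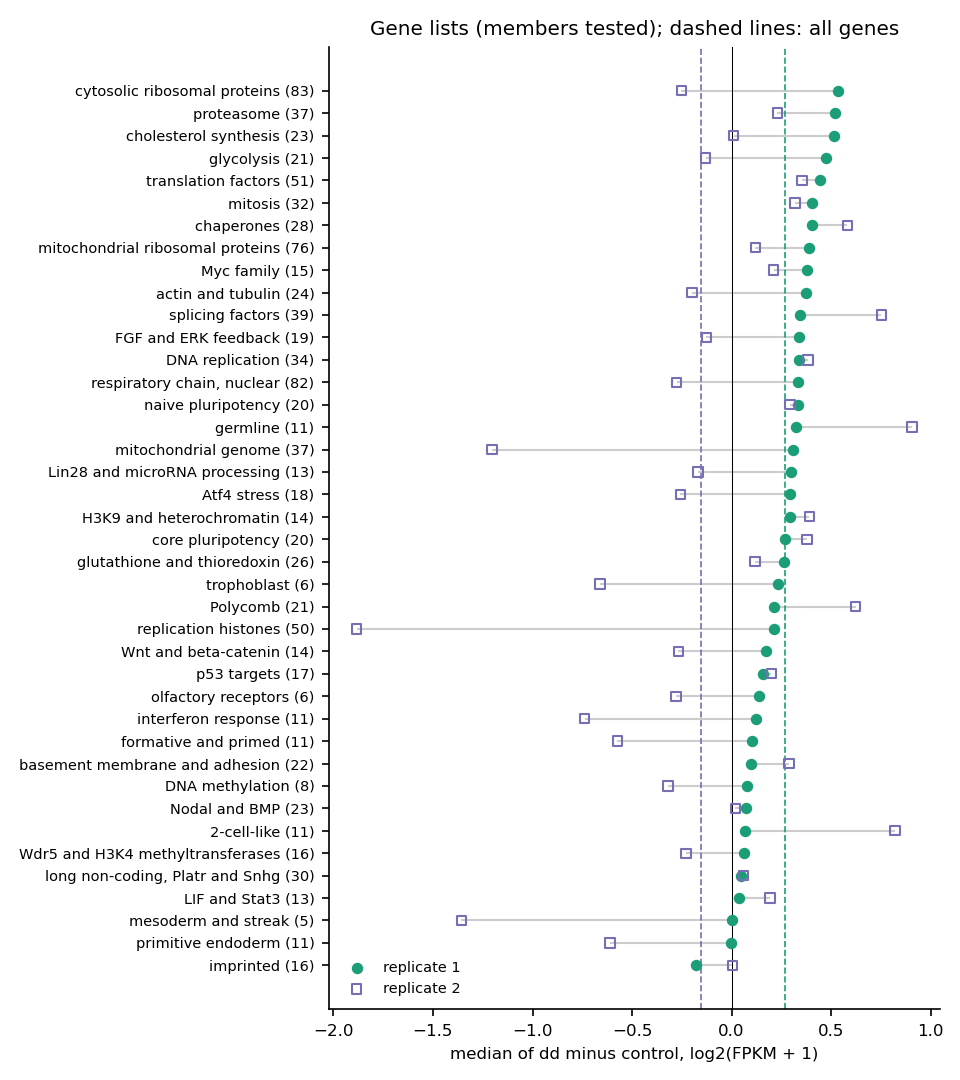
Median difference between dd and control (horizontal axis, log2(FPKM + 1) scale) in replicate 1 (circles) and replicate 2 (squares) for each gene list with at least 5 members tested, with dashed lines at the medians of all genes, 0.27 and -0.16. Replication histones and the mitochondrial genome have the widest gaps between the replicate numbers, and splicing factors and chaperones lie above both dashed lines. The lines include pseudogenes and non-coding genes, and the medians of protein-coding genes alone were 0.26 and -0.02. In replicate 2 the median of protein-coding genes also varied with level, and was 0.43 at a mean of 20 to 100 FPKM.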

How the data were processed

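RNA levels were measured by sequencing in 8 mouse embryonic stem cell libraries, 2 per group. The authors deposited FPKM per gene and library, per the file headers, and CASAVA 1.4, HISAT2 and the mm10 build are named per the submitters' processing notes. Not given in the sources used here are the counting program, annotation, FPKM formula and strand use, so overlapping and antisense genes could not be told apart. Of 58420 rows, 6082 had no value, and 52081 of the other 52338 matched GENCODE M21 (GRCm38) by identifier. Deposited FPKM times exon length fell on whole reads, within 0.02, for 98.3% to 98.9% of low values, which gave reads per gene and depth. Floors of 3 reads and exact 95% intervals of read ratios hold for counting error alone, because without molecular identifiers reads are not independent molecules.

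Genes with a mean of at least 1 FPKM over the dd and control libraries were tested on log2(FPKM + 1) with limma 3.58.1 in R 4.3.3. All 4 groups were fitted without covariates (4 residual degrees of freedom, 3 with the replicate number as a block), with a mean-variance trend, two-sided p-values and Benjamini-Hochberg adjustment at 0.05. Tables and sequences were handled with Python 3.11.15. Transcript GC and 31-base stretches shared between genes came from GENCODE M21. The fitting code was tested on simulated data.

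The genes compared, the gene lists and the tests were chosen with earlier results of these data known. Named genes were called genes, the 14 higher and 14 lower protein-coding genes with the largest difference shared by both replicate numbers (mean of the higher group at least 5 FPKM; predicted, clone, pseudogene and replication histone symbols left out), up to 4 members per list and direction, of which examples are printed, and a fixed set of pluripotency and reference genes. Of the 14 lower genes, 1 is not reported here. Alternatives were pseudocounts of 0.1 and 0.5, no filter, a minimum mean of 5 FPKM, median ratio scaling, quantile normalization, the block, dd and control libraries alone, robust moderation, protein-coding genes alone and each library left out. Voom on recovered reads, the block combined with other settings, at least 100 mean reads, and differences centred within 50 GC bins were chosen after seeing the data.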

Additional observations from a re-analysis of the deposited data

How the results depend on the processing

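Depth limits low genes most in the controls: 3 reads in a transcript of 1 kb correspond to 0.468 and 0.820 FPKM there and to 0.157 and 0.147 FPKM in dd. The count of genes 2-fold higher in both replicate numbers, 181, was 337 with a pseudocount of 0.1, 85 among protein-coding genes and 88 after centring on GC, and lay within 1.5 times of 181 under the other 6 settings. The count of genes 2-fold lower in both, 97, was 384 and 208 with pseudocounts of 0.1 and 0.5, 36 at a mean of at least 5 FPKM, 162 after median ratio scaling, 40 among protein-coding genes and 16 with at least 100 mean reads. The cause was not tested. These counts need both replicate numbers, so no library could be left out of them.

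The limma count of 0 called genes ranged from 0 to 136 when each library was left out in turn, and from 0 to 332 with the replicate block (332 without control replicate 1, 18 without dd replicate 1). A library left alone in its group is assumed to vary like those of the other groups. Without the block, such a fit also mixes the difference between replicate numbers into the one between treatments. The count was 106 for the dd and control libraries alone with the replicate block, 1 with median ratio scaling and the block (the snoRNA gene Gm26165, at 9.04 and 15.8 FPKM in control and listed at 0 in both dd libraries), and 5 with voom and the block. It stayed at 0 with both pseudocounts, both filters, both scalings, robust moderation and voom without the block. Deviations of same-numbered libraries from their group means had a Pearson r across genes of 0.741 to 0.899 over the 6 pairs of groups. The labels do not say what a replicate number marks, so the libraries are known to share a number only. Of the 260 differences of named genes, 10 changed sign after centring on GC, among them Bbc3 and Ash2l, 1 under median ratio scaling (Socs3), 1 under quantile normalization (mt-Co3) and 31 to 51 when 1 library was left out. Of 42 list medians, 8, 11, 3 and 9 to 15 changed sign under the same settings, and 3 and 1 with pseudocounts of 0.1 and 0.5.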

Other observations

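The snoRNA and zinc-finger genes were chosen after their values had been seen, and neither class was tested. Of 169 snoRNA genes, small guides of RNA modification, 19 were 2-fold lower in dd in both replicate numbers and 1 was higher. Of all genes tested, 0.668% were lower and 1.25% higher by as much. Gm26165, among the 19, stood at 9.04 and 15.8 FPKM in control and was listed at 0 in both dd libraries. It passed the filter through its controls alone, so the snoRNA count cannot be set against those shares. The snoRNA medians were 0 in replicate 1 and -2.85 in replicate 2. Other short RNAs had like medians, 0 and -3.10 for 91 snRNA genes and 0 and -2.81 for 107 miRNA genes, with 2 and 1 of them 2-fold lower in both. Snora23 stood at 221 and 104 FPKM in control and at 47.6 and 5.06 FPKM in dd, and Snora20 at 326 and 167 FPKM and at 115 and 5.75 FPKM. Snora41 stood at 399 and 128 FPKM in control and at 152 and 11.5 FPKM in dd. Both dd libraries were below both controls for Snora23 and Snora20, and for Snora41 dd replicate 1 was above control replicate 2.

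Of 300 genes named Zfp, Zscan, Zkscan or Zbtb, 8 were 2-fold higher in dd in both replicate numbers and 0 were lower. Of the 8, Zfp2, Zfp781 and Zfp942 had a control mean under 1 FPKM and passed the filter through their dd libraries, so this count cannot be set against the share of all genes. At any size, 137 were higher in both and 42 lower in both. Of all genes tested, 30.6% were higher in both and 15.4% lower in both, and the same limit holds for setting these counts against those shares. The 8 were Zfp105, Zfp2, Zfp229, Zfp383, Zfp655, Zfp781, Zfp820 and Zfp942. Zfp105 stood at 0.146 and 5.65 FPKM in control and 13.4 and 14.5 FPKM in dd, and Zfp655 at 8.6 and 7.91 FPKM in control and 19.9 and 19.7 FPKM in dd. In both genes the dd libraries were above both controls. The median transcript GC of the 300 genes was 43.4%, below the 49.4% of all protein-coding genes tested, and the part of base composition in this count was not tested.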
